A study of Mus musculus with 24 samples.

Results

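Dimethylation of histone H3 at lysine 9 (H3K9me2) was set against input chromatin in the area at risk of preconditioned mouse hearts. All 6 H3K9me2 libraries and all 6 input libraries of that biopsy were taken, 12 of the 24 libraries of the series, and every region of the deposited count table was used. The mice were C57BL6 animals of 12 months, 3 female and 3 male, and all of them had undergone ischemic preconditioning, in which the left coronary artery was closed for 5 min and reopened for 5 min in 4 cycles, with 30 min of reperfusion before sampling. The area at risk is the muscle fed by the closed artery, and the remote myocardium, whose 12 libraries are used below for comparison, is muscle of the same hearts outside that territory. Each library came from 1 biopsy of 1 animal, so H3K9me2 and input pair by animal. No sham heart is among the samples analysed here, so the values describe where the mark lies in preconditioned muscle and not what preconditioning changed.

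H3K9me2 is written mainly by the methyltransferases G9a and GLP and is read by HP1 proteins. It is known for broad domains in gene-poor and silent chromatin, often at the nuclear lamina, and for being scarce around the starts of active genes. Input is the same sheared chromatin sequenced without precipitation, so a region higher in H3K9me2 than in input held a larger share of the precipitated counts than of the counts of the chromatin it came from. Both are shares of the counts in the listed regions, and a lower share does not mean absence of the mark. In a bulk biopsy, a mark carried by fewer cells and less mark per cell cannot be told apart.

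The table lists 53386 regions of build mm10, called by the authors. Counts in the listed regions ran from 416683 to 1196368 per H3K9me2 library of the area at risk (median 636290) and from 1286383 to 2478668 per input library. In the remote myocardium they ran from 443261 to 981763 and from 1405503 to 1770520. Lower counts in the listed regions make the H3K9me2 libraries the less precise side of every comparison. The standard error (SE) of a region's log2 fold change had a median of 0.20. After edgeR's filter on low counts 40928 regions were tested, and 12458 were not, 5297 of which had no count in any of the 12 libraries. Labels name heart tissue, which these counts cannot check, because they hold chromatin and no transcripts.

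Sequence upstream of 6 gene starts is printed first, because the CG pairs there moved with the calls described below. Each stretch holds the 250 bases upstream of a RefSeq start on assembly GRCm38.p6, 5′ to 3′ on the gene's strand, with each CG pair in capitals. Zfp36 (chr7:28379229-28379478, minus strand, 18 CG pairs), Cdk9 (chr2:32712785-32713034, minus strand, 32 CG pairs) and Nfil3 (chr13:52981040-52981289, minus strand, 43 CG pairs) lay in regions lower in H3K9me2. Tnni3 (chr7:4522529-4522778, minus strand, 3 CG pairs) is shown as a CG-poor start in a lower region. Krtap10-4 (chr10:77827071-77827320, minus strand, 3 CG pairs) and Krt75 (chr15:101573905-101574154, minus strand, 4 CG pairs) lay in regions higher in H3K9me2.
Zfp36: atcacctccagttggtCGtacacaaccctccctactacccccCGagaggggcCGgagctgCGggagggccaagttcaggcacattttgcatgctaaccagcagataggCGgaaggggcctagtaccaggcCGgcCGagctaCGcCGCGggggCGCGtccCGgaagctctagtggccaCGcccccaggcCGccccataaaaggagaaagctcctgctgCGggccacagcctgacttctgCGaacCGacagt
Cdk9: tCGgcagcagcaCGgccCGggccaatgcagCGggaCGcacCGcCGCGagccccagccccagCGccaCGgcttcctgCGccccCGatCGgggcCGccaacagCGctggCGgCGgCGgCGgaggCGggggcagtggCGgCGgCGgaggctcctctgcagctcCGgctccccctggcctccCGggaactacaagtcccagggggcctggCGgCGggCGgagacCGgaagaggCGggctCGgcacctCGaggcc
Nfil3: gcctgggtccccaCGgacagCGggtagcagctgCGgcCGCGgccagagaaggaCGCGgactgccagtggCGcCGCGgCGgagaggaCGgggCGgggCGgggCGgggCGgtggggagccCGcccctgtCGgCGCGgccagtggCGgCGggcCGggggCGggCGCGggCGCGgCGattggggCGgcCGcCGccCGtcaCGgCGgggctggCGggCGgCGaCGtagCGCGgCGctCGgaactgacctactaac
Tnni3: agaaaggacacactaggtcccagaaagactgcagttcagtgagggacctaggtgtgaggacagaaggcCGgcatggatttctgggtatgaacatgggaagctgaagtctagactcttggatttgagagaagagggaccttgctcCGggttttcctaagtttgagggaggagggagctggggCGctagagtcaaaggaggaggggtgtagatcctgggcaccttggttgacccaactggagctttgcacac
Krtap10-4: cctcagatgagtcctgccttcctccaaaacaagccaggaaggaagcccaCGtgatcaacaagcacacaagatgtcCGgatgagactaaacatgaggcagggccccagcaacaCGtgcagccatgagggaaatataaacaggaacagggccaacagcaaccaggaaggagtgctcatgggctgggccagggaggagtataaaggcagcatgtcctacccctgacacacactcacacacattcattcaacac
Krt75: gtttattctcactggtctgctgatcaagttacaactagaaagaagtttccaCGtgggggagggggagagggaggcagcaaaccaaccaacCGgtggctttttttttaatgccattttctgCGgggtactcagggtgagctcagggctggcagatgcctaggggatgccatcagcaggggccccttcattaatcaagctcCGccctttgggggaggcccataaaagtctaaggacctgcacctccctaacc

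In edgeR's quasi-likelihood test with the mouse as a block, 5479 regions had a higher share in H3K9me2 and 5515 a lower one at a Benjamini-Hochberg FDR of 0.05. These are 13.4% and 13.5% of the tested regions, and 26.9% were called in either direction. The median log2 fold change was 0.01 over all tested regions, 0.61 over the higher ones and -0.74 over the lower ones. Losses of share were deeper than gains. Of the lower regions 1151 passed a log2 fold change of -1, and of the higher regions 112 passed 1, with extremes of -2.61 and 1.35. In 4173 of the lower and 2774 of the higher regions all 6 mice had the same sign. The even split rests on the scaling. When libraries were scaled to their counts in intergenic regions, the median log2 fold change of all regions moved to -0.23, and 1586 regions were higher and 11590 lower. With DESeq2 in place of edgeR 1932 were higher and 2192 lower.

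Regions were sorted by place. A region that came within 2 kb of an annotated start of a gene is called gene start here, one that touched a gene elsewhere is called gene body, and one that did neither is called intergenic. Only protein-coding and lncRNA genes were counted as genes, so an intergenic region can touch an annotated gene of another kind. Gene starts lost share and intergenic regions gained it. Of 12181 gene start regions 27.8% were lower and 6.25% higher, with a median log2 fold change of -0.22. Of 7633 intergenic regions 3.76% were lower and 27.1% higher, with a median of 0.27. The 21114 gene body regions lay between, with 8.72% lower, 12.6% higher and a median of 0.03. Under the scaling to intergenic counts the medians were -0.46, 0.02 and -0.21 for gene start, intergenic and gene body, so the order of the classes was the same while the gene body median turned negative. Intergenic regions then had 695 higher and 818 lower calls. That scaling centres the intergenic class near 0, so this near-even split was set by the scaling itself. The order also held in each of 4 groups of region width. Among regions up to 2000 bases wide, for instance, the medians were -0.32 at gene starts and 0.28 in intergenic regions.

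**Figure D1:**
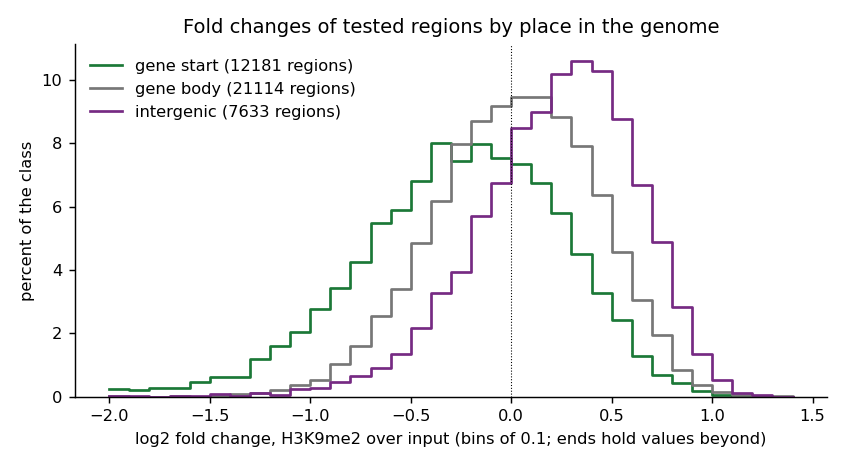
Distribution of log2 fold changes (x axis, H3K9me2 over input, positive means higher in H3K9me2) as the percent of each class of tested regions (y axis), in bins of 0.1. The gene start curve is centred to the left of 0, with a median of -0.22, and the intergenic curve to the right, with a median of 0.27. Both curves have regions on either side of 0.

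The same order stood in every mouse. Gene starts held 28.0% ± 0.977 of the counts of the H3K9me2 libraries and 32.5% ± 0.669 of the input counts (SD, n = 6). The log2 ratio of these shares ran from -0.24 to -0.19 over the mice, with a mean of -0.21 ± 0.024. For intergenic regions it ran from 0.21 to 0.31, with a mean of 0.25 ± 0.04, and for gene bodies from 0.02 to 0.05. Every mouse was below 0 at gene starts and above 0 in the other classes. The exact two-sided sign-flip test over 6 mice gave p = 0.03125 for each of the 3 classes, the smallest value 6 mice can give, and 0.0341 after Benjamini-Hochberg adjustment over the 48 classes of place tested here and below. That p says only that all 6 mice had 1 sign, and chromosome 5 reached it with a mean ratio of -0.009. The shares of the 3 classes make up the whole library, so their tests are not separate.

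**Figure D2:**
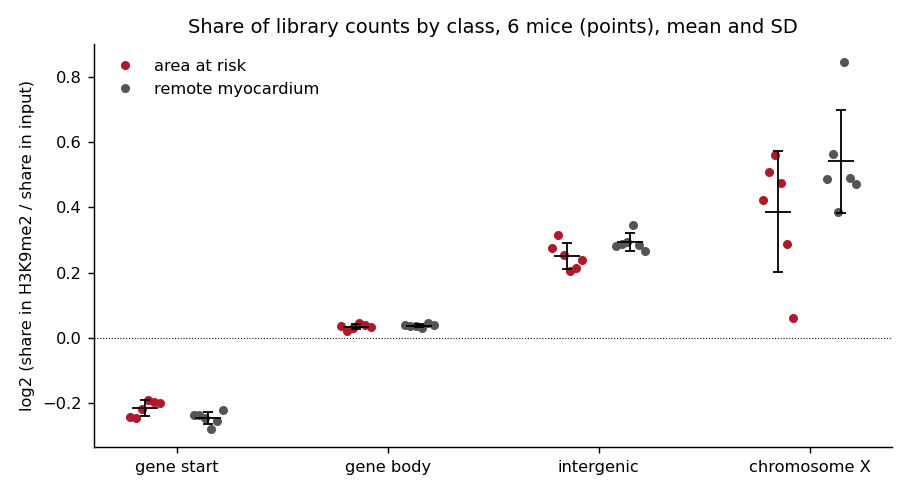
Log2 ratio of a class's share of H3K9me2 counts to its share of input counts (y axis) for each mouse (points), with mean and SD, in the area at risk (red) and in the remote myocardium (grey). All 6 mice lie below 0 at gene starts and above 0 in intergenic regions in both biopsies.

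Distance from a gene start graded the calls. Of 2346 regions centred within 500 bases of a start, 39.6% were lower and 3.92% higher, with a median log2 fold change of -0.43. From 5000 to 10000 bases away the shares were 11.9% and 9.95%, close to even. More than 100000 bases away, 6.46% of 2168 regions were lower and 28.7% higher, with a median of 0.23. In between, each step outward to 100000 bases had a smaller lower share and a larger higher share. Under the scaling to intergenic counts the medians ran from -0.67 in the nearest group to -0.01 in the farthest, so the gradient was present. That scaling places 0 at intergenic regions, so it tells the order of the groups and not whether the far ones gained.

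The CG content of the start moved with the calls. Upstream sequence was at hand for 7380 starts of 6175 genes in tested regions, of which 4.44% lay in a higher and 40.8% in a lower region. Of the 375 starts with 0 or 1 CG pair in the 250 bases, 20.8% lay in a higher region and 14.4% in a lower one. Of the 1449 starts with 26 or more, 0.621% lay in a higher region and 60.9% in a lower one, with a median log2 fold change of -0.66. The steps between ran from 18.6% lower at 2 or 3 pairs to 54.2% at 21 to 25. The CG-poor end turned under the scaling to intergenic counts, where 290 regions with starts of 0 or 1 pair went from 68 higher and 34 lower to 21 higher and 72 lower, with a median of -0.09 instead of 0.15. The median number of CG pairs was 19 for starts in lower regions, 3 for starts in higher regions, 11 for uncalled ones and 6 over all 32851 promoters of the table. The median GC content, which rises with the CG count, was 64% in the first group and 51.6% in the second, and its part in the result was not tested.

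Read against the printed stretches, Nfil3 and Cdk9 stand in the CG-rich group that was most often lower. Tnni3 and Krtap10-4 stand in the group of 2 or 3 pairs, where 18.6% of starts lay in a lower and 12.7% in a higher region, and Krt75 in that of 4 to 6, with 23.3% and 8.32%. The letters TATAAA were searched on both strands of the same 250 bases and were present in 12.4% of all promoters. Of 417 starts with TATAAA, Krtap10-4 among them, 33.1% lay in a lower region and 7.91% in a higher one. Of the 6963 starts without it the shares were 41.3% and 4.24%. The starts with TATAAA also had a lower median GC content, 53.6% against 60.8%.

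**Figure D3:**
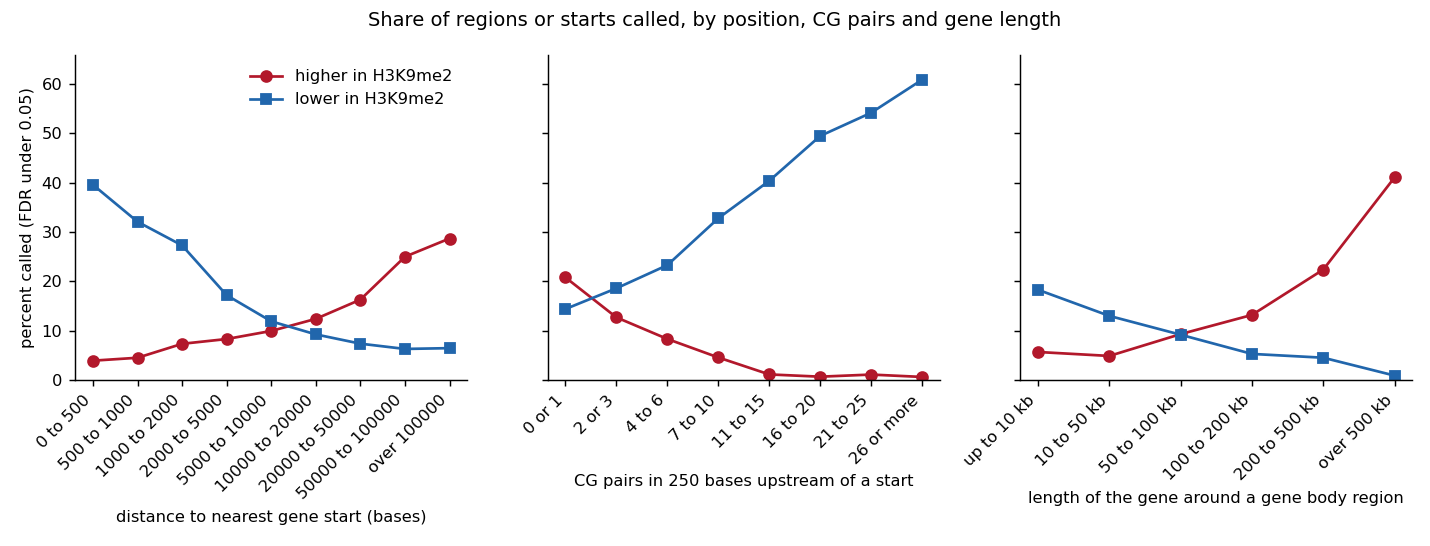
Percent called higher (red circles) or lower (blue squares) in H3K9me2 than in input at FDR under 0.05 (y axis), by distance of a region from the nearest gene start, by the number of CG pairs upstream of a start, and by the length of the protein-coding gene around a gene body region (x axes). Lower calls fall from 39.6% to 6.46% with distance and rise from 14.4% to 60.9% with CG pairs, and higher calls rise to 41.1% in genes over 500 kb.

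Within genes, lower calls grew rarer with the length of the gene, and higher calls more frequent from genes of 10 to 50 kb (4.88%) onward. Gene length and distance from a start were not told apart. Single long genes such as Gse1 (353 kb) and Tns1 (214 kb), given below, had lower calls and no higher ones. Of gene body regions in protein-coding genes up to 10 kb long, 18.3% were lower and 5.68% higher. In genes of 50 to 100 kb the shares were 9.18% and 9.31%. In genes over 500 kb, 5 of 559 regions (0.894%) were lower and 230 (41.1%) higher, with a median log2 fold change of 0.40. The log2 share ratio of that last group ran from 0.29 to 0.54 over the 6 mice. Under the scaling to intergenic counts its median was 0.16, still positive. Regions touching only lncRNA genes were higher in 25.1% and lower in 5.26% of 2986 cases, and those touching a protein-coding gene were higher in 8.79% and lower in 16.7% of 30309. The scaling to intergenic counts sets each group against intergenic regions, and under it the excess of higher calls did not hold outside the longest genes. With that scaling, regions touching only lncRNA genes had 228 higher and 422 lower calls. Gene body regions in genes of 200 to 500 kb went from 665 higher and 134 lower to 205 higher and 361 lower.

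Taking whole genes, 11281 of 21900 annotated protein-coding genes had a tested region. Of these, 4010 (35.5%) had only lower calls among their regions, 1481 (13.1%) only higher calls, 195 both, and 5595 none. Of 4102 lncRNA genes with a tested region, 893 had only higher and 804 only lower calls. Genes with many called regions were picked out after their values were seen. Gse1, a subunit of an LSD1 and HDAC corepressor complex, had 31 lower and no higher calls among 58 regions. Tns1, which encodes the focal adhesion protein tensin, had 22 lower of 33. Trak1 had 14 lower of 26, Capzb, an actin capping subunit of the sarcomere's Z disc, 13 of 17, and Hspg2, the basement membrane protein perlecan, 13 of 19. On the other side stood Cdh13, which encodes T-cadherin, with 22 higher and no lower calls among 29 regions. Camta1 had 19 higher and 1 lower among 64, Sdk1, an adhesion gene, 9 higher of 10, and Shank2 and Cdh4 10 each, of 16 and 20. Neighbouring regions of 1 gene are not independent.

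Single regions were named by rank of p among those with 1 sign in all 6 mice. Levels are CPM, counts scaled to a common library total in tested regions after TMM (edgeR's correction for composition), and differences are log2 fold changes from edgeR's quasi-likelihood test with adjusted p. Midn, whose product midnolin passes nuclear proteins to the proteasome, had the smallest p. Its gene body region chr10:80156200-80161999 held 3.77, 8.15 and 20.5 CPM (lowest, median, highest) in H3K9me2 and 47.5, 59.2 and 66.6 CPM in input. The highest H3K9me2 library lay below the lowest input library. The log2 fold change was -2.27 (SE 0.18, adjusted p = 2.7e-30).

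Zfp36 encodes tristetraprolin, an mRNA decay factor. Its gene start region chr7:28376200-28380599, which contains the stretch printed above, held 1.74, 10.7 and 15.2 CPM in H3K9me2 and 33.1, 40.04 and 46.9 CPM in input. No library of one kind reached the other, and the log2 fold change was -2.08 (SE 0.22, adjusted p = 1.7e-18). Rhof, a small GTPase gene, had a start region at chr5:123129800-123139999 with 11.3, 17.4 and 18.8 CPM in H3K9me2 against 52.2, 59.8 and 72.0 CPM in input. The groups lay apart again, by a log2 fold change of -1.83 (SE 0.17). Kdm6b encodes an eraser of H3K27 methylation. Its region chr11:69403800-69414799 held 7.44, 13.9 and 25.5 CPM in H3K9me2 and 46.3, 62.3 and 70.3 CPM in input, a log2 fold change of -1.87 (SE 0.17).

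The other lower coding regions of the 10 included Bahcc1 (-1.67), Sbno2 (-1.26), the region shared by the starts of Gipc3 and Hmg20b (-0.93), that shared by Pip5k1c and Tjp3 (-0.92), and a gene body region of Hspg2 (-0.91), in log2 fold change. In all 10, every input library was above every H3K9me2 library. Some of these regions overlap a neighbouring listed region, among them those of Kdm6b, Pip5k1c, Rhof, Sbno2 and Gipc3.

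Among the higher coding regions, gains were smaller and the libraries overlapped more often. Kcnq1 encodes the pore of the slow delayed rectifier potassium channel, which helps end the cardiac action potential, and lies in an imprinted domain. A region inside it at chr7:143329800-143336399, which also holds the start of 4933417O13Rik, had 76.5, 97.1 and 148 CPM in H3K9me2 and 44.4, 58.7 and 75.7 CPM in input. The libraries were just apart, since the lowest H3K9me2 library and the highest input library were both of mouse 27, whose log2 ratio was 0.015. The log2 fold change was 0.83 (SE 0.10, adjusted p = 1.3e-12). Pkd1l2, a polycystin-like gene, held 43.6, 54.2 and 73.5 CPM against 15.9, 22.4 and 35.4 CPM at chr8:117046000-117048799. It too lay apart, with a log2 fold change of 1.19 (SE 0.15). Glis1, a zinc finger transcription factor gene, held 75.3, 91.3 and 106 CPM against 41.8, 48.6 and 59.9 CPM at chr4:107496600-107502399, a log2 fold change of 0.80 (SE 0.11) without overlap.

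Erlec1, which encodes a lectin of the endoplasmic reticulum, had a log2 fold change of 1.13 (SE 0.16) at chr11:30908600-30911799, where H3K9me2 held 29.9, 55.7 and 67.0 CPM and input 13.4, 22.5 and 29.8 CPM. The libraries were just apart. Shisa9, which encodes an AMPA receptor partner (log2 fold change 1.01), and Kcnma1, which encodes the large-conductance calcium-activated potassium channel (0.86), were higher in all 6 mice, although the libraries of both kinds overlapped. The remaining 4 belong to families of near-identical copies and are uncertain, since reads of 1 copy can be counted at another. They were the zinc finger genes Zfp978 (0.66) and Zfp981, whose region Zfp993 shares (0.75), the chitinase-like gene Chil4 (1.07) and the major urinary protein gene Mup5 (1.01). Zfp978's region held 20.7 CPM per kb averaged over the 12 libraries, against a median of 9.55 CPM per kb in the middle of 5 equal groups of regions ranked by that density.

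The higher intergenic regions of smallest p were chr12:20226400-20234599 near Gm32719 (log2 fold change 0.56), chr9:27197400-27202599 near Jam3 (1.03), chr17:3076200-3084999 near Scaf8 (0.48), chr7:12010400-12016399 near Vmn1r77 (0.71) and chr10:60876800-60885199 near Unc5b (0.73). The first and the third held 33.6 and 38.7 CPM per kb, far above the median of the densest of the 5 groups, 11.6. The lower intergenic regions were named by the same rank. Near Zswim4, 4943 bases away, chr8:84197600-84205999 held 7.54, 13.0 and 22.2 CPM in H3K9me2 and 46.4, 56.2 and 65.7 CPM in input, a log2 fold change of -1.98 (SE 0.18). A second region there, 143 bases from the gene, was lower by -1.57 on the same scale, and chr11:119051400-119060599 near the Polycomb gene Cbx8, 10487 bases away, by -1.27.

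**Figure D4:**
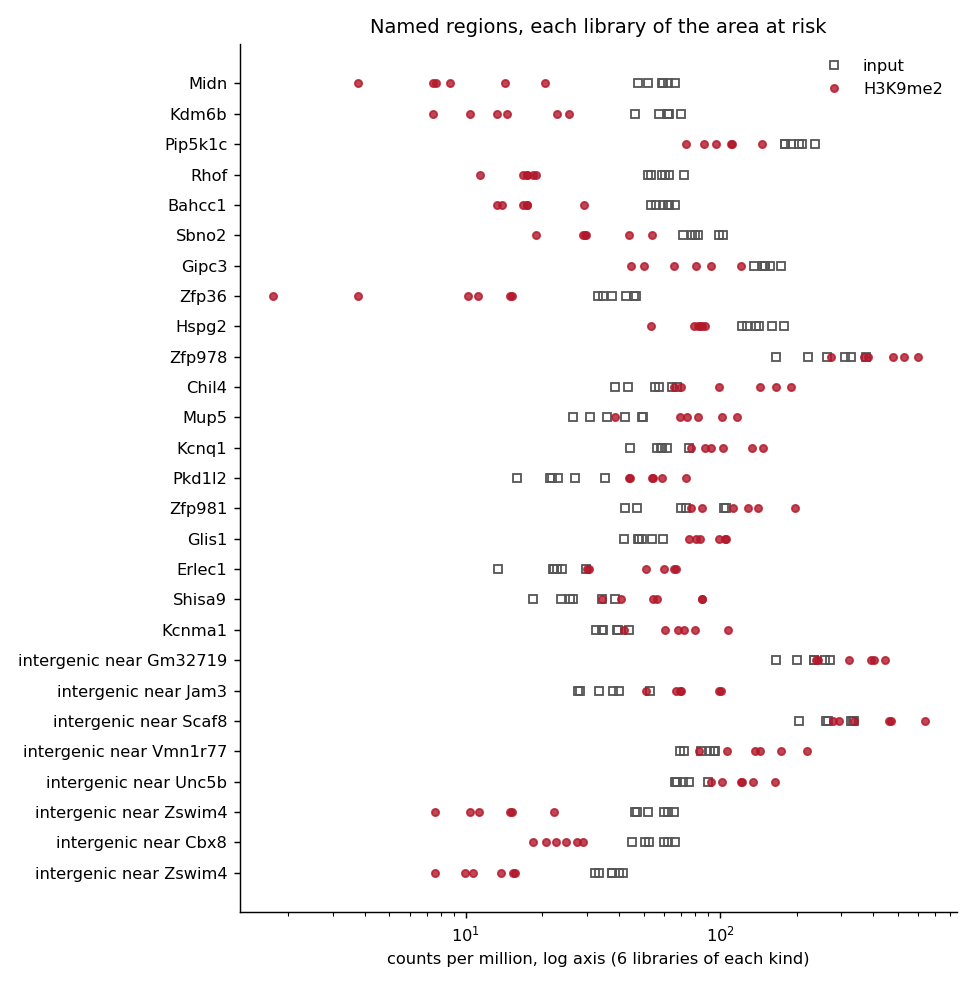
CPM, counts scaled to library totals (x axis, log axis) of 27 of the 28 named regions in each of the 6 H3K9me2 libraries (red circles) and 6 input libraries (open squares) of the area at risk. In the 12 lower regions drawn the kinds do not overlap, from Midn with at most 20.5 CPM in H3K9me2 and at least 47.5 CPM in input. Most higher regions overlap.

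Counts per kb moved with the direction, though not in even steps. In the sparsest of the 5 groups (median 5.28) 16.8% were lower and 4.40% higher. The next group had most losses, with 28.1% lower and 4.56% higher, and in the densest group (median 11.6) 2.96% were lower and 29.6% higher. Of the densest group 28.0% was intergenic, against 13.0% of the sparsest. That density averages the H3K9me2 and input libraries, so a gain of share in H3K9me2 raises it by itself. The ranking is therefore not independent of the calls. The part of density in the result was not tested.

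Gene lists were described through 1 region a gene, the one of smallest p at its starts or, where it had none, of any of its regions. That choice favours calls in genes with more regions, and the FDR over regions does not bound it. A start region was at hand for 8439 of the 11281 protein-coding genes measured. It was at hand for 17 of 19 RNA polymerase II and splicing genes, 5 of 8 heart muscle genes and 1 of 4 synaptic adhesion genes. The mix of places therefore differs between lists. Among all 11281 protein-coding genes measured this way, 9.39% were higher and 33.4% lower, with a median log2 fold change of -0.29. The lists stand beside that background, and 7 lists of genes that run the cell's basic machinery had no higher member. Of 19 measured genes of RNA polymerase II and splicing, 15 were lower (78.9%, median -0.91). Of 20 chromatin remodellers and coactivators 14 were lower (median -0.85), and of 13 heat shock proteins and chaperones 9 (69.2%, median -0.61). Of 16 heterochromatin and nuclear lamina genes 10 were lower (median -0.48), of 14 proteasome and ubiquitin genes 8 (median -0.56), of 22 glycolysis and citric acid cycle genes 12 (median -0.54) and of 18 Polycomb and histone deacetylase genes 9 (median -0.66). These medians were negative under every scaling tried. Under the scaling to intergenic counts 52.2% of all 11281 genes were lower and 2.93% higher. With DESeq2 16.9% of all 11281 genes were lower, and the lists, in the order given, had 12, 11, 5, 3, 4, 8 and 8 lower members, so that the 3 of 16 heterochromatin genes (18.8%) stood near that background.

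Cdk9 is the kinase that releases paused RNA polymerase II. Its start region chr2:32711800-32715399, with the CG-rich stretch shown above, held 7.44, 10.9 and 16.2 CPM in H3K9me2 and 35.9, 38.2 and 49.4 CPM in input. The kinds lay apart, and the log2 fold change was -1.81 (SE 0.20, edgeR adjusted p = 8.7e-16). Polr2l, a small subunit shared by RNA polymerases, fell by 1.49 and the splicing factor U2af2 by 1.66 on the log2 scale. Brd2, which encodes a reader of acetylated histones, held 4.08, 11.6 and 15.4 CPM in H3K9me2 and 24.7, 36.3 and 45.2 CPM in input. Every input library was higher, by a log2 fold change of -1.78 (SE 0.22). Smarcd1 and Arid1b, subunits of SWI/SNF remodellers, had log2 fold changes of -1.26 and -1.45. Hdac5 (-1.30) and Ring1 (-0.96) stood near the head of the Polycomb and deacetylase list, and Lmna, which encodes lamin A and C (-0.98), Dnmt3a (-0.97) and Daxx (-1.10) the heterochromatin list.

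Glycolysis was led by Aldoa, which encodes aldolase A and whose start region held 5.66, 12.6 and 15.2 CPM in H3K9me2 and 25.2, 33.1 and 44.4 CPM in input. The kinds did not overlap, and the log2 fold change was -1.56 (SE 0.21). Eno3, the muscle enolase gene, followed at -1.12 and Hk1, a hexokinase gene, at -0.69. The ubiquitin pathway gene Ube2m (-1.57) and the proteasome gene Psmd8 (-0.64) stood near the head of their list. Hspa9, a mitochondrial chaperone gene (-1.07), Hsp90ab1 (-0.61) and Hsp90aa1 (-0.996) led the chaperones.

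Clock genes had calls in both directions. Of 15 measured members 11 were lower and 3 higher, with a median log2 fold change of -0.96. Per1, a repressor of the loop, held 20.7, 30.9 and 59.9 CPM in H3K9me2 and 67.0, 78.6 and 99.6 CPM in input at chr11:69100600-69110199. The kinds lay apart, with a log2 fold change of -1.19 (SE 0.13, edgeR adjusted p = 3.4e-17). Dbp, an output factor, and Nr1d1, which encodes the repressor REV-ERB alpha, had values of -1.08 and -1.28. Outside the naming rule and chosen after its values were seen, Nfil3 was lower by -1.51 (SE 0.26), and the 3 higher members were Npas2 (0.87), Arntl (0.64) and Rora (0.60), which encode activators of the loop or of its genes. Their regions lay in the gene body, those of Per1, Dbp, Nr1d1 and Nfil3 at a start. Under the scaling to intergenic counts 1 of the 15 was higher and 12 were lower, and with DESeq2 1 and 9.

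Most heart muscle genes were not called. Of 8 measured heart muscle genes 1 was lower and none higher, with a median of -0.33, near that of all genes. The lower one was Tnni3, which encodes cardiac troponin I. Its start region chr7:4522000-4523999 held 6.94, 15.7 and 19.4 CPM in H3K9me2 and 17.3, 22.4 and 25.1 CPM in input. The libraries overlapped, and the log2 fold change was -0.64 (SE 0.23, edgeR adjusted p = 0.0215). That call was lost with DESeq2 (adjusted p = 0.138) and without mouse 17, and 4 of the 8 genes were lower under the scaling to intergenic counts. The myosin heavy chain genes Myh6 and Myh7 did not pass, with -0.62 (SE 0.27) and -0.52 (SE 0.24). Of 11 cardiac transcription factors 5 were lower and 1 higher, with a median of -0.35. Srf, the serum response factor, held 0, 4.78 and 9.18 CPM in H3K9me2 and 17.5, 21.8 and 27.6 CPM in input, without overlap, a log2 fold change of -1.99 (SE 0.29). Mef2d was lower (-0.86), and a gene body region of Tead1 was higher (0.57). The call of Tead1 was lost under the scaling to intergenic counts, with DESeq2 and without mouse 17, 19 or 27. Lower factors numbered 6 of 11 under that scaling (54.5%) and 2 with DESeq2 (18.2%), near the 52.2% and 16.9% of all genes.

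Keratins were the list with most gains in number. Of 109 keratin and keratin-associated genes 22 were measured, over 20 distinct regions, and 10 were higher and none lower (45.5%, median 0.42). Krt71, a hair follicle keratin gene, held 64.5, 76.3 and 92.4 CPM in H3K9me2 and 37.7, 47.9 and 62.2 CPM in input at chr15:101736000-101741399. The libraries did not overlap, and the log2 fold change was 0.69 (SE 0.12, edgeR adjusted p = 3.1e-07). Krtap10-4 had a log2 fold change of 0.77 (SE 0.14) at chr10:77826000-77829999, and Krt75 of 0.64 (SE 0.12) at chr15:101571000-101576399, both around the stretches printed above. The keratin median under the scaling to intergenic counts was 0.17 and 5 of the 22 (22.7%) were higher, as many as with DESeq2. Of all genes 2.93% and 3.49% were higher in these 2 settings.

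Developmental factors of other lineages had 2 higher and no lower members of 21, with a median of -0.14, where 33.4% of all genes were lower. Hnf4a (0.54), a regulator of liver genes, was among the higher ones. Pax2 did not pass, at -0.38. Under the scaling to intergenic counts 1 of these 21 genes was higher and 5 were lower (23.8%, against 52.2% of all genes). With DESeq2 1 was higher and none lower. Imprinted genes had 4 higher and 1 lower of 13 (median -0.14), led by Kcnq1 (0.63, at another region than that named above), Gnas (0.42) and H19 (0.40). With the scaling to intergenic counts 1 imprinted gene was higher and 6 were lower (46.2%, median -0.39), and with DESeq2 1 was higher and none lower. Small lists were synaptic adhesion genes of great length, with 2 higher of 4 (Ptprd 0.87, Ctnna3 0.74), liver and pancreas genes, with 1 higher of 3 (Cpa1 0.71), and vomeronasal and taste receptors, with 1 higher and 1 lower of 4 measured among 391 genes (Vmn2r82 1.01, Tas1r1 -1.05). None of the 4 synaptic genes was higher with DESeq2 or under the scaling to intergenic counts, where 1 was lower. Robo2 at 0.54, Apoa1 at -0.28 and Ins2 at -0.13 did not pass. Markers of other cell types that a biopsy can hold were leukocyte genes, with 1 higher and 1 lower of 5 (Itgam 0.73, Cd68 -0.71), and genes of smooth muscle, fat, Schwann cells and mesothelium, with 2 lower of 11, Wt1 (-0.85) among them. Of the same 11, 5 were lower under the scaling to intergenic counts (45.5%) and 1 with DESeq2 (9.09%), below the 52.2% and 16.9% of all genes. The calls of Hnf4a, Gnas, H19, Tas1r1 and Wt1 were lost with DESeq2, and those of Hnf4a, Gnas and H19 also under the scaling to intergenic counts. Hnf4a lost its call too without the mouse as a block and without mouse 19 or 23. Calls were also lost for H19 and Wt1 without mouse 30 and for Cpa1 without mouse 19. Ptprd lost its call without mouse 17, and Ctnna3 without mouse 17, 19 or 22.

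**Figure D5:**
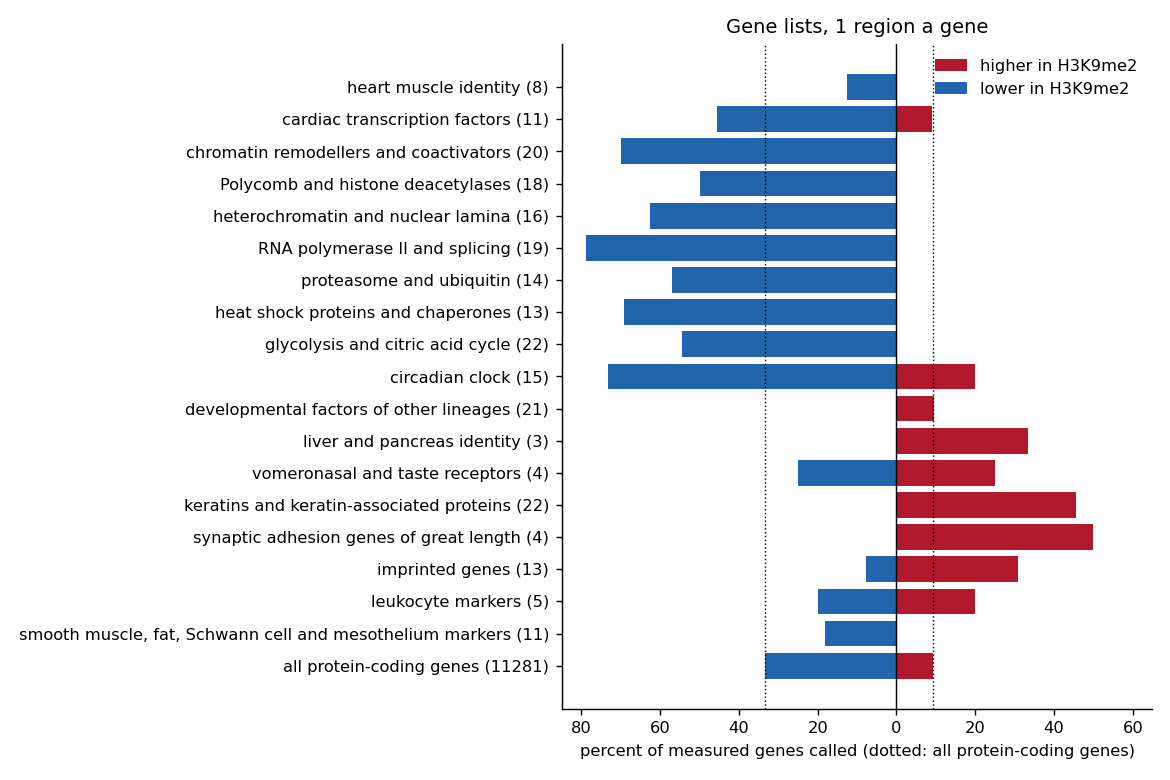
Percent of each list's measured genes (number in brackets) called lower (blue, left) or higher (red, right) in H3K9me2 than in input at FDR under 0.05, with dotted lines at 33.4% lower and 9.39% higher, the shares over all 11281 measured protein-coding genes. RNA polymerase II and splicing reaches 78.9% lower, and keratins reach 45.5% higher.

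Counts of the listed regions were summed by region midpoint in windows of 1 Mb to see larger stretches. Of 1779 windows tested, 499 were higher (28.0%) and 443 lower (24.9%). Gains lay where coding genes were few. Windows with 0 to 2 coding genes were higher in 48.2% and lower in 5.84% of 274 cases, and windows with more than 20 were higher in 4.42% and lower in 77.9% of 226. The former held a median of 2.5 regions and the latter of 77.5, so a gene-poor window rests on few places and not on its whole length. The median window held 5 coding genes among the higher, 18 among the lower and 8 among all. Without TMM 881 windows were higher and 262 lower, with the median of all windows moved from 0.04 to 0.16. With the scaling to intergenic counts 242 were higher and 723 lower.

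The lower window of smallest p, chr10:80000001-81000000, holds the midpoints of 54 coding genes, Midn and Sbno2 among them. It took 0.269% ± 0.0472 of the H3K9me2 counts and 0.442% ± 0.0259 of the input counts (SD, n = 6), and its log2 share ratio ran from -0.93 to -0.49 over the mice. By edgeR, which scales by TMM over the windows and so differs from the plain shares, its log2 fold change was -0.85 (SE 0.05). Its neighbour chr10:81000001-82000000 (-0.72), chr19:5000001-6000000 (-0.69) and chr7:19000001-20000000 (-0.62) are as crowded with genes. The window chr1:73000001-74000000 (-0.64) differs, since only Tnp1 and part of Tns1 lie in it. The higher windows were chr3:106000001-107000000 (log2 fold change 0.80), with the chitinase-like cluster, chr4:61000001-62000000 (0.72), with the major urinary protein cluster, chr12:82000001-83000000 (0.48), chr7:136000001-137000000 (0.43), where Mgmt is the only coding gene reached, and chr8:118000001-119000000 (0.43), inside Cdh13. The chitinase-like and urinary protein windows hold 7 and 12 listed regions, in families of near-identical copies that are uncertain as said above. Lower windows formed longer runs, up to 11 in a row on chromosome 11 from 93 to 104 Mb with 337 coding genes, and the longest runs of higher windows were 5 long.

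Chromosomes differed as wholes. Chromosome 13 gained most among autosomes, with 26.0% of its regions higher and 5.39% lower and a log2 share ratio of 0.23 ± 0.061 (SD, n = 6). Chromosomes 19 and 11 lost share, with ratios of -0.14 ± 0.032 and -0.10 ± 0.037. Chromosome X had 144 listed and 67 tested regions, of which 21 were higher and 2 lower. Without the mouse as a block 9 were higher and 2 lower, under the scaling to intergenic counts 6 and 6, and with DESeq2 7 and 1. Its share ratio averaged 0.39 ± 0.18 and ran from 0.06 to 0.56 over the mice. All 6 were above 0, and the exact sign-flip p was 0.03125 for chromosomes X, 11, 13 and 19 alike (0.0341 adjusted over 48 classes). Chromosome 5 had the same p with a mean ratio of -0.009, so that p does not measure size. Female and male mice averaged 0.33 ± 0.24 and 0.44 ± 0.14 on X (n = 3 each, exact permutation p = 0.6, smallest possible 0.1). By edgeR's interaction term no region differed between the sexes in its enrichment at FDR 0.05 (0.0% of 40928), and 2312 had an unadjusted p under 0.05.

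The remote myocardium of the same mice showed where the area at risk stands. There 8551 of 40767 regions were higher (21.0%) and 8356 lower (20.5%). Both biopsies called 4413 regions higher, 80.5% of those of the area at risk and 51.6% of those of the remote myocardium, and 4584 lower, 83.1% and 54.9%, while 2 were called in opposite directions. Library counts spread more widely in the area at risk, from 416683 to 1196368 for H3K9me2 and from 1286383 to 2478668 for input. The remote libraries ran from 443261 to 981763 and from 1405503 to 1770520. Whether depth had a part in the larger number of remote calls was not tested. The difference in enrichment between the biopsies, an interaction over all 24 libraries in edgeR, was called at FDR 0.05 in 0 of 42445 regions (0.0%). An unadjusted p under 0.05 was found in 1800 (4.24%). The median SE of that difference was 0.28 on the log2 scale. Each of the 28 named regions had the same direction in the remote myocardium, for example Midn with -2.02, Zfp36 with -1.90 and Kcnq1 with 0.81 against -2.27, -2.08 and 0.83.

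No class share differed between the biopsies past the test. Gene starts had a log2 share ratio of -0.21 ± 0.024 there and -0.24 ± 0.02 in the remote myocardium, a difference of 0.03 ± 0.038 with 4 of 6 mice above 0 (exact sign-flip p = 0.125, 0.5 adjusted over 48 classes). For intergenic regions the difference was -0.04 ± 0.058 (p = 0.125, exact) and for chromosome X -0.15 ± 0.22 (p = 0.156, exact). Mouse 23 carried much of the first 2 differences, and without it they were 0.0186 and -0.0237. On X the difference was -0.10 without mouse 30. The smallest p over the 48 classes was 0.0625, for 3 of them, among them regions within 500 bases of a start.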

How the data were processed

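The authors deposited whole-number counts per region and library for 6 H3K9me2 and 6 input libraries per biopsy. Bowtie2 2.2.2, SICER 1.1 and edgeR are named, without roles, per the submitters' processing notes. Whether duplicates were removed and how reads in overlapping regions were assigned is not given in the sources used here. At the deposited FDR (adjusted p-value) under 0.05 the authors' deposited table held 9207 regions, of which 8899 were tested here and 8786 were called here, 0 with opposite sign. The authors' deposited log2 fold changes served only that comparison of signs.

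Counts were fitted with edgeR 4.0.16 (R 4.3.3), using TMM, filterByExpr and the two-sided quasi-likelihood test with the mouse as a block, on 12 libraries. The biopsy difference used all 24 libraries. SE is the absolute log2 fold change over the root of F. Scripts were tested on simulated data. Mouse numbers mark the same animal, so they pair the libraries by design. H3K9me2 and input of 1 mouse, each less its group mean, correlated at 0.07, 0.06, 0.01, 0.18, 0.00 and -0.01. No pair of libraries of one kind agreed within sampling noise (chi-square per region 1.04 to 2.02). Libraries were grouped by their titles.

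Gene places came from RefSeq, GRCm38.p6, the assembly of mm10. Starts and strands were given for 27025 genes, and for 7589 genes either end was used. Upstream sequences are RefSeq's. Named regions are the 10 lower and 10 higher of smallest p in protein-coding genes and the 5 higher and 3 lower in intergenic space, with 1 sign in 6 mice, the 5 windows each way and the 3 members of smallest p per list. Members, lists and tests were chosen with earlier results of these data known. Values of some genes that this rule names are not reported here.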

Additional observations from a re-analysis of the deposited data

Results flagged for a closer look

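Of 34 groups of 6 values checked for a single value far from the rest, 1 stood out, and chance alone sets apart about 1 in 20. In the Erlec1 region the log2 ratio of H3K9me2 to input was 0.0318 in mouse 30, against 1.07 to 1.52 in the other 5 mice. The gap was 0.694 of the whole range, above Dixon's 95% critical value for 6 values.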

How the results depend on the processing

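All 28 named regions kept their direction and their call in the 336 values computed for them under other settings. They were picked from these same counts by smallest p and by the same sign in every mouse. Keeping the call was therefore largely set by that choice and is no separate test of it. Some genes named from the lists lost their calls, as given above. Without the mouse as replicate block 4637 regions were higher and 5033 lower, and 377 and 370 windows. Scaled to intergenic counts, 1586 regions were higher and 11590 lower, and 242 and 723 windows, with 1 region differing between biopsies. DESeq2 1.42.0 gave 1932 and 2192 regions and 319 higher windows. At FDR 0.01, 3080 and 3518 regions passed. Fewer regions tested, those at or above the median abundance, left 3483 and 3640. Without TMM 881 windows were higher and 262 lower, and windows of 500 kb gave 819 and 716. The causes were not tested.

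Leaving out each mouse gave 3882 to 5123 higher and 4424 to 5111 lower regions, 447 to 470 higher and 388 to 423 lower windows, 0 to 1 regions that differ between biopsies (1 without mouse 19) and 0 between sexes. The log2 share ratio ran from -0.22 to -0.21 at gene starts, 0.0324 to 0.0374 in gene bodies, 0.24 to 0.26 in intergenic regions and 0.35 to 0.45 on chromosome X, where 5 mice allow an exact p no lower than 0.0625. Counting only starts of known strand, added after seeing the data, gave -0.25 at gene starts. A correction for GC content was not run, since no genome of the build was used here. H3K9me2 depth of 416683 to 1196368 counts limits single regions.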
